A study of Mus musculus with 2 samples.

Results

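Peg10 and Sgce lie back to back near the start of mouse chromosome 6, and Mest lies together with Copg2 further along the same chromosome. Both places are imprinted domains, and 10 genes of them were examined here: Calcr, Casd1, Sgce, Peg10, Ppp1r9a, Pon3, Pon2 and Asb4 of the Peg10-Sgce domain, and Mest and Copg2 of the Mest domain. The members were found by gene symbol among the 29126 entries of the deposited table, whatever status an entry had, and each symbol matched 1 entry. The values come from strand-specific mRNA-seq of mouse embryonic fibroblasts (MEFs), with 1 library for each genotype, Dnmt1+/+ and Dnmt1-/-. The cells called Dnmt1-/- carry a hypomorphic allele of Dnmt1 on both chromosomes. Cells of both genotypes also are null for Trp53, the gene of p53, and the strain is given as unknown. The question put to these 2 libraries was how mRNA levels differ where DNA methylation is strongly reduced.

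An imprinted gene is expressed mainly from the chromosome inherited from one parent. At many imprinted domains a promoter region carries DNA methylation on one parental chromosome, set in the germ line and then copied at each cell division with the help of Dnmt1, the maintenance DNA methyltransferase. At the shared promoter region of Peg10 and Sgce, and at the main promoter of Mest, it is the maternal chromosome that is methylated, and Peg10, Sgce and Mest are expressed from the paternal one. Other genes of these domains, among them Asb4, Calcr, Ppp1r9a and Copg2, have been described as expressed mostly from the maternal chromosome, several of them only in certain tissues such as brain or placenta. The libraries carry no information on parental origin, so each value below is the sum over both chromosomes.

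Levels are given as RPKM, read numbers divided by transcript length and by the mapped reads of the library. A change is the difference in log2(RPKM + 0.1) between Dnmt1-/- and Dnmt1+/+ MEFs, and changes at low RPKM come out too small on this scale. Entries counted below, called genes kept, have a symbol, the Cuffdiff status OK and 1 RPKM or more in either library. A gene was counted as past 2-fold where its log2 change on this scale exceeded 1 in size. With 1 library per genotype there is no replicate error and no test, so a difference between genotypes cannot be told apart from a difference between these 2 cell lines or 2 libraries. The table holds no read counts. The paper gives the mapped reads of each library, but the number of reads behind a value was not worked out.

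Dnmt1 itself, on chromosome 9, had 65.2 RPKM in Dnmt1+/+ and 14.5 RPKM in Dnmt1-/- MEFs, a log2 change of -2.16. Trp53 RNA was present, at 18.6 and 19.9 RPKM. The lines also differ outside the Dnmt1 gene, since Xist was at 0.00648 and 37.0 RPKM and the Y-linked Ddx3y was at 13.9 RPKM and listed at 0, respectively. The fibroblast markers Col1a1 and Vim were high in both libraries, with 1448 and 2269 RPKM in Dnmt1+/+ and 897.7 and 1873 RPKM in Dnmt1-/- MEFs, while Thy1, which marks many fibroblasts, was at 4.84 and 0.129 RPKM. Over all 11 fibroblast markers the summed level was 6291 and 4980 RPKM, and of the 10 kept 2 were past 2-fold up, S100a4 and Pdgfra, and 3 past 2-fold down, Thy1, Fn1 and Col1a2. Of 31 entries for markers of epithelial, endothelial, blood, neural, trophoblast, germ and muscle cells, 27 stayed under 1 RPKM in both libraries, the exceptions being Cd68, Nes, Tubb3 and Acta1. The summed levels in Dnmt1+/+ and Dnmt1-/- MEFs were 66.9 and 139.0 RPKM for neural, 29.2 and 42.9 for muscle, 0.596 and 3.75 for blood, 0.461 and 0.679 for endothelial, 0.328 and 0.736 for epithelial and 0.0152 and 0.141 for germ cell markers, and their part in the results on the members was not tested. The trophoblast list, of interest because several of these imprinted genes are active in placenta, summed to 0.220 RPKM in Dnmt1+/+ and 0.166 RPKM in Dnmt1-/- MEFs over 7 markers, with Elf5, Tpbpa, Prl3b1 and Hand1 listed at 0 in both.

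Of the 10 members, 8 passed the filters, 6 in the Peg10-Sgce domain and 2 in the Mest domain. More than 2-fold higher in Dnmt1-/- MEFs were 3 of the 8, namely Sgce, Pon3 and Asb4, of which Asb4 was kept only through its Dnmt1-/- value. Among all 11244 genes kept, 8.47% were past this threshold. More than 2-fold lower was 1 of the 8, Casd1, where the share over all genes kept was 10.9%. Without the limit on low RPKM these shares were 9.92% and 11.1%, and Ppp1r9a joined Casd1. Peg10, Pon2, Mest and Copg2 differed by less than 2-fold. The median log2 change of the 8 members was 0.55, beside a median of -0.14 over all genes kept. On chromosome 6 as a whole, 13% of the 552 genes kept were past 2-fold up and 9.78% past 2-fold down, and the median change was close to 0. The 2 members that were not kept were Ppp1r9a, which had status OK but stayed under 1 RPKM, and Calcr, which Cuffdiff did not test.

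**Figure D1:**
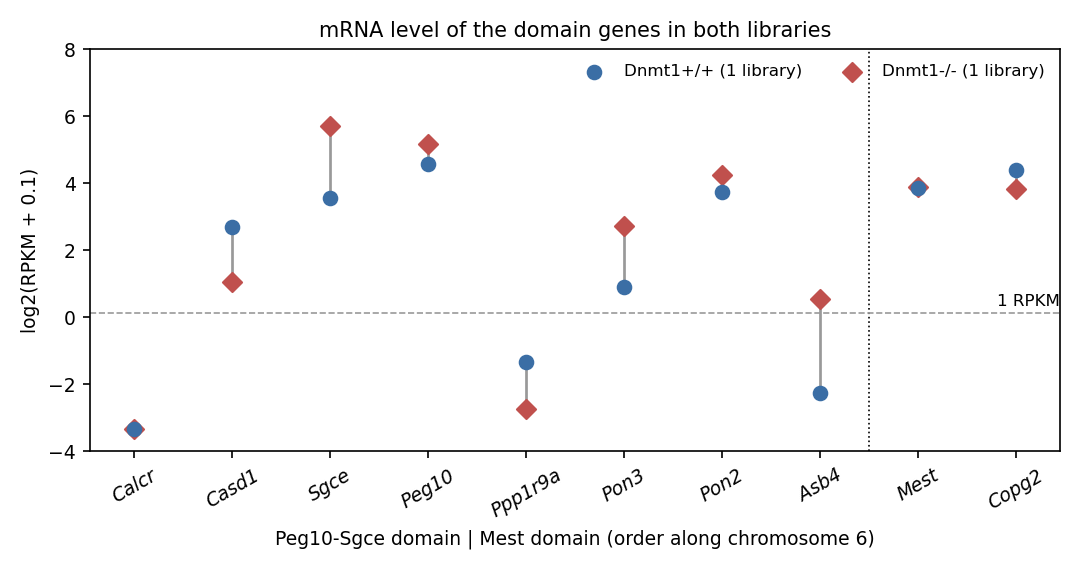
The vertical axis is log2(RPKM + 0.1) and the horizontal axis lists the 10 genes in chromosomal order, with circles for the Dnmt1+/+ library and diamonds for the Dnmt1-/- library and no error bars, as each genotype has 1 library. The widest gaps are those of Asb4, Sgce, Pon3 and Casd1, Mest has the same level in both libraries, and Calcr is listed at 0 in both.

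Sgce encodes epsilon-sarcoglycan, a membrane protein of the dystrophin-associated complex that is found in many tissues besides muscle. Its entry covers chr6:4624350-4697204 on the minus strand of mm9. Sgce had 11.6 RPKM in Dnmt1+/+ and 51.9 RPKM in Dnmt1-/- MEFs, 4.47-fold higher and a log2 change of 2.15. Of the 11244 genes kept, 96.0% had a smaller change in this direction. In Dnmt1+/+ MEFs Sgce stood near the middle of all genes kept, with 50.7% of them at a lower RPKM, and in Dnmt1-/- MEFs 87.1% were lower.

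Peg10, a domesticated retrotransposon gene whose protein resembles viral Gag and is needed for placental development, is transcribed in the other direction from the same region. Its entry begins 89 bases beyond the end of the Sgce entry and covers chr6:4697294-4710516 on the plus strand. Peg10 had 23.9 RPKM in Dnmt1+/+ and 35.8 RPKM in Dnmt1-/- MEFs, 1.5-fold higher and a log2 change of 0.58, which is not past 2-fold. The neighbours thus differed in size of change though not in sign. The ratio of Sgce to Peg10 was 0.486 in Dnmt1+/+ and 1.45 in Dnmt1-/- MEFs, so that Peg10 had the higher RPKM of the pair in one library and Sgce in the other.

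Casd1, which encodes an enzyme that adds acetyl groups to sialic acids in the Golgi, lies 31.0 kb from the far end of Sgce, at chr6:4551008-4593381 on the plus strand. Casd1 had 6.36 RPKM in Dnmt1+/+ and 1.97 RPKM in Dnmt1-/- MEFs. The level in Dnmt1+/+ was 3.23-fold that in Dnmt1-/- MEFs, a log2 change of -1.64, and 4.42% of genes kept had a change further down. Casd1 was therefore lower where Sgce, the next gene on this chromosome, was higher.

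Calcr encodes the calcitonin receptor and begins the domain at chr6:3635720-3714713. It was listed at 0 RPKM in both libraries, as were the microRNA genes Mir653 and Mir489 at the same locus. Calcr therefore gives no comparison between the genotypes. Ppp1r9a encodes neurabin, a protein that holds protein phosphatase 1 at the actin cytoskeleton and is best known from neurons. Ppp1r9a, at chr6:4853320-5115661, had 0.299 RPKM in Dnmt1+/+ and 0.0514 RPKM in Dnmt1-/- MEFs, a log2 change of -1.40. Both values are below 1 RPKM, and the change ranged from -0.31 with a pseudocount of 1 to -2.33 with a pseudocount of 0.01.

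The paraoxonases follow on the minus strand. These are esterases and lactonases, of which Pon1 and Pon3 are associated with high-density lipoprotein in blood and Pon2 is made inside cells of many tissues. Pon1, at chr6:5118090-5143946 and not a member here, was listed at 0 in both libraries. Pon3, at chr6:5167809-5206260, had 1.78 RPKM in Dnmt1+/+ and 6.53 RPKM in Dnmt1-/- MEFs, 3.67-fold higher and a log2 change of 1.82. The change of Pon3 was larger than that of 95.0% of genes kept. Pon2, at chr6:5214624-5248373, had 13.3 RPKM in Dnmt1+/+ and 18.9 RPKM in Dnmt1-/- MEFs, 1.43-fold higher and a log2 change of 0.51. Of this family of 3, then, 2 were kept, 1 of them past 2-fold up and none past 2-fold down. Pon2 stayed the most abundant paraoxonase, while the ratio of Pon3 to Pon2 was 0.134 in Dnmt1+/+ and 0.345 in Dnmt1-/- MEFs.

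Asb4 closes the domain at chr6:5333386-5383021 on the plus strand. It encodes an ankyrin repeat and SOCS box protein, a kind of adaptor that brings substrates to ubiquitin ligases. Asb4 had 0.109 RPKM in Dnmt1+/+ and 1.37 RPKM in Dnmt1-/- MEFs, a log2 change of 2.81 that exceeded that of 97.0% of genes kept. Asb4 was thus near the floor in one library and at a low level in the other, where 9.03% of genes kept were lower still. Its change rests on the small Dnmt1+/+ value and was 1.09 with a pseudocount of 1 and 3.54 with a pseudocount of 0.01.

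Mest encodes a protein of the alpha/beta hydrolase family that is abundant in mesodermal tissues of the embryo and in growing fat. Mest had 14.4 RPKM in Dnmt1+/+ and 14.7 RPKM in Dnmt1-/- MEFs, a log2 change of 0.03. Relative to the median change of all genes kept this is 0.17. The level of Mest was close to the middle of the genes kept, with 57.1% of them lower in Dnmt1+/+ and 60.0% lower in Dnmt1-/- MEFs.

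Copg2 encodes a gamma subunit of COPI, the coat of vesicles that move from the Golgi back to the endoplasmic reticulum. Copg2 had 20.9 RPKM in Dnmt1+/+ and 14.1 RPKM in Dnmt1-/- MEFs, a log2 change of -0.56. The RPKM of Copg2 was above that of Mest in Dnmt1+/+ and slightly below it in Dnmt1-/- MEFs. Mest lies on the plus and Copg2 on the minus strand, their annotated ends overlap by 904 bases, and the table gives both the same locus, chr6:30688049-30846760. No source used here says if read strand served to assign reads, so reads in the overlap may have been counted for either gene. The entry of Mir335, a microRNA gene within Mest, was listed at 0 in both libraries, although an mRNA library is not made to hold a mature microRNA.

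**Figure D2:**
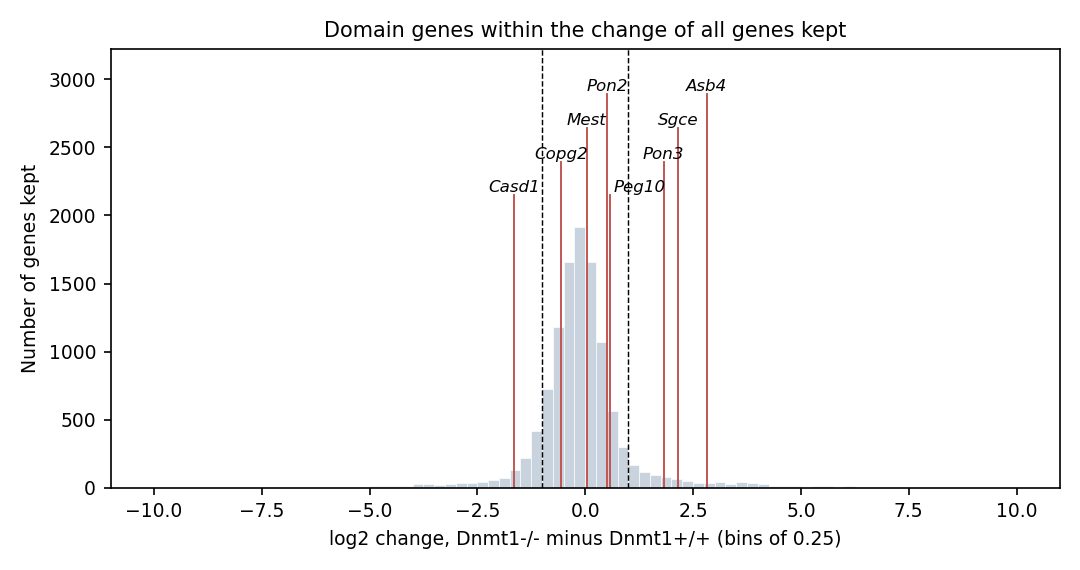
Bars count the 11244 genes kept by log2 change from Dnmt1+/+ to Dnmt1-/- in steps of 0.25, dashed lines mark 2-fold in either direction, and red lines mark the 8 members kept at heights that carry no value. Sgce, Pon3 and Asb4 lie in the upper tail, Casd1 lies in the lower tail, and the other 4 lie within 2-fold.

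In Dnmt1+/+ MEFs the order by RPKM from the highest was Peg10, Copg2, Mest, Pon2, Sgce, Casd1, Pon3, Ppp1r9a, Asb4 and Calcr. In Dnmt1-/- MEFs it was Sgce, Peg10, Pon2, Mest, Copg2, Pon3, Casd1, Asb4, Ppp1r9a and Calcr. Sgce moved to the head of the order, and Casd1 and Pon3 exchanged places. As no spread is known, it cannot be said which neighbours in these orders differ.

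Methylation of DNA in these cells lies mostly on the dinucleotide CG, so the bases upstream of the members are shown with each CG in capitals. Upstream windows from RefSeq, built on GRCm38.p6, were found for 8 members, that is for all but Peg10 and Sgce. Each window matched chromosome 6 of NCBI37 (mm9) at 1 place, and the coordinates below are those of mm9. Where a gene had several windows the one nearest to the 5′ end of its entry was taken. The 4 printed are those of the members past 2-fold and of Mest, whose promoter is methylated on the maternal chromosome. They run 5′ to 3′ on the strand of the gene and were ended where the annotation has an exon of that gene.
Casd1: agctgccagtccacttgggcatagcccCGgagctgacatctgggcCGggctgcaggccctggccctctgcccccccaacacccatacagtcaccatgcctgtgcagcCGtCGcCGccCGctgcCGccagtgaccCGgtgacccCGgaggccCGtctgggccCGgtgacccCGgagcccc
Pon3: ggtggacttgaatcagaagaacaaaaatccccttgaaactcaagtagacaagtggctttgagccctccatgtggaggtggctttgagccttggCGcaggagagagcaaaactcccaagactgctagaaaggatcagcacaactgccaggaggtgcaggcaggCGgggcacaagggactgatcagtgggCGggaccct
Asb4: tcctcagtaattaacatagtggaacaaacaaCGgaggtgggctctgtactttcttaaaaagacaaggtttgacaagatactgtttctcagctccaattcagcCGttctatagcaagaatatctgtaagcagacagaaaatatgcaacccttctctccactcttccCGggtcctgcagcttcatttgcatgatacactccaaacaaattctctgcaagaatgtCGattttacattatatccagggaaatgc
Mest: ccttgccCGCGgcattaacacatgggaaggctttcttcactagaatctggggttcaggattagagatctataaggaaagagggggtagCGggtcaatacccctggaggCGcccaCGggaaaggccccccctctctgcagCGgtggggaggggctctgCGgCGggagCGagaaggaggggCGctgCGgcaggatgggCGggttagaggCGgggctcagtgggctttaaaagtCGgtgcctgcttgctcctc
The Casd1 stretch is chr6:4550661-4550839 on the plus strand, and the Pon3 stretch is chr6:5206287-5206483 on the minus strand. The Asb4 stretch is chr6:5333136-5333385 and the Mest stretch chr6:30687800-30688049, both on the plus strand.

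Over the full 250 upstream bases, Asb4 had 4 CG dinucleotides and Pon3 had 6, beside a median of 6 over the 32851 windows of the table. Mest had 14, a count reached or exceeded by 29.4% of windows. Casd1 had 17 and Copg2 had 19, which 23.5% and 19.7% of windows reached. Pon2 had 24 and Ppp1r9a 35, the highest of the members, a count reached by 2.97% of windows. Calcr had 2 in the window nearest to its entry and 24 in a second window inside the gene. Further windows of other members also differed from the nearest, with 8 CG for Asb4, 4 for Casd1, 8 for Ppp1r9a and 7 for Mest, so the counts depend on the start site taken. At least 1 CG stood in 92.1% of all windows. CG is its own reverse complement, so both strands are covered, and these counts say nothing of whether a site was methylated in either line.

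**Figure D3:**
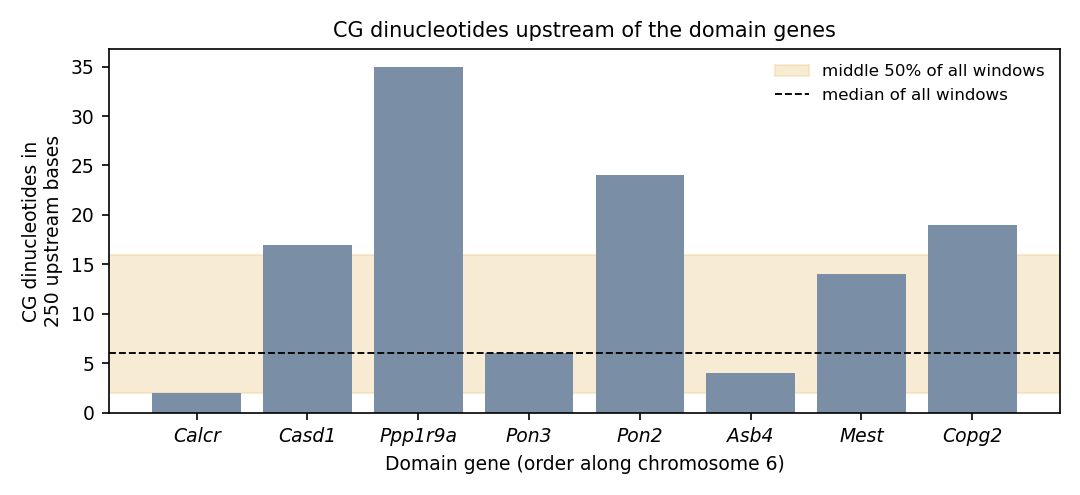
Bars give the number of CG dinucleotides in the 250 bases upstream of 8 members in chromosomal order, the band is the middle 50% of the 32851 windows and the dashed line their median of 6. Ppp1r9a, Pon2, Copg2 and Casd1 rise above the band, and Mest, Pon3, Asb4 and Calcr do not.

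The members were next set beside the genes around them. Within 1 Mb of the Peg10-Sgce domain, or between its members, were 15 other entries with a symbol, of which 8 were kept, 1 past 2-fold up and 3 past 2-fold down, beside 8.47% and 10.9% of all genes kept. The 1 up is near that share for 8 genes. The median log2 change of these 8 was -0.97, while that of the 6 members kept in the domain was 1.20. Both medians depend on the filter. Among the members, Asb4 was kept only through its Dnmt1-/- value, and Ppp1r9a, which was lower, was left out. Among the neighbours, Gng11 and Dync1i1 were kept only through their Dnmt1+/+ values. Gng11, a gamma subunit of G proteins located between Calcr and Casd1, had 18.3 RPKM in Dnmt1+/+ and 0.601 RPKM in Dnmt1-/- MEFs, a log2 change of -4.71. Col1a2, a chain of type I collagen and the last gene before Casd1, had 1241 and 475.9 RPKM, a log2 change of -1.38. Col1a2 and Casd1 lie 59.5 kb apart and were both lower.

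Dync1i1, an intermediate chain of the dynein motor and the second gene after Asb4, had 23.4 RPKM in Dnmt1+/+ and 0.0229 RPKM in Dnmt1-/- MEFs, a log2 change of -7.58. Between Asb4 and Dync1i1, Pdk4, a kinase that restrains pyruvate dehydrogenase, had 7.96 and 5.55 RPKM. Samd9l, an interferon-inducible gene on the far side of Calcr, was the 1 neighbour more than 2-fold higher, at 1.80 and 4.78 RPKM. Bet1, at 23.6 and 12.3 RPKM, was just within 2-fold, with a log2 change of -0.94. Slc25a13, at 10.1 and 4.997 RPKM, was at the threshold, its ratio of RPKM being 2.02 and its log2 change -0.997, which was counted as within 2-fold. Tfpi2 and Gngt1, which lie between Calcr and Gng11, were listed at 0 in both libraries. Read along the chromosome, the members kept from Sgce to Asb4 had positive changes, but this run of signs depends on the filter. Ppp1r9a, which lies between Peg10 and Pon3 and was not kept, had a log2 change of -1.40. Asb4 was kept only through its Dnmt1-/- value. Casd1 on one side and Pdk4 on the other had negative changes.

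Of 24 other entries with a symbol within 1 Mb of the Mest domain, 9 were kept, and none of these was past 2-fold, where 19.4% of all genes kept were. Within 2 Mb 21 were kept, 1 past 2-fold up and 1 down, and no difference between the surroundings of both domains was tested. The changes of the 9 within 1 Mb ran from -0.72 for Zc3hc1 to 0.11 for Tmem209, with a median of -0.28. Tsga14, a centrosomal protein gene and the last one before Mest, had 4.81 RPKM in Dnmt1+/+ and 4.67 RPKM in Dnmt1-/- MEFs. Tsga13, the first after Copg2, was listed at 0 in both.

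**Figure D4:**
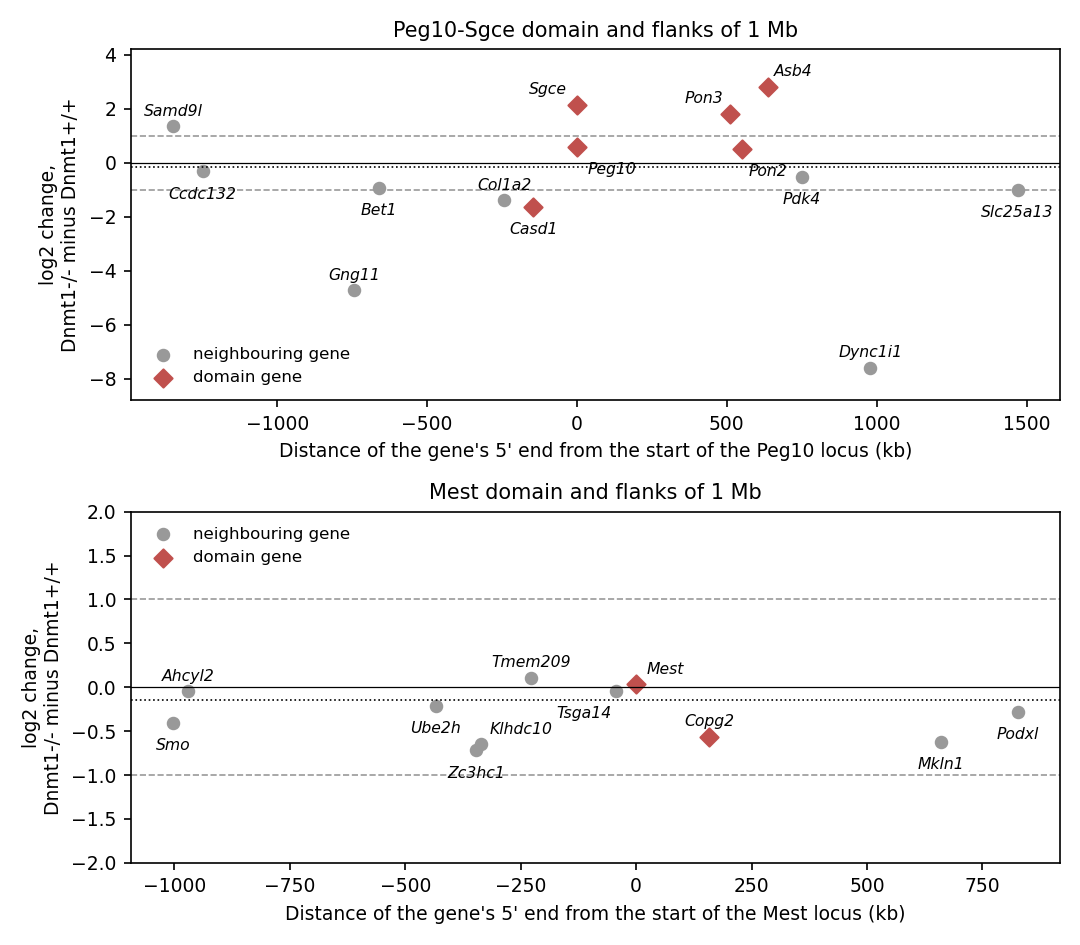
Each point is a gene kept, placed by the distance of its 5′ end in kb from the start of the Peg10 locus (upper panel) or of the Mest locus (lower panel) and by its log2 change, with diamonds for members and circles for neighbours. Dashed lines mark 2-fold and the dotted line marks the median of all genes kept, -0.14. In the upper panel Sgce, Peg10, Pon3, Pon2 and Asb4 lie above genes that are mostly lower, and in the lower panel every point lies within 2-fold.

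Entries that the assembly left without a symbol were found at 5 places inside the domains, 4 between Calcr and Asb4 and 1 at the Mest and Copg2 locus. Of all 8014 entries without a symbol that passed the same filters, 19.3% were past 2-fold up and 26.9% past 2-fold down. A stretch of 277 bases at chr6:5167458-5167734, which lies beyond the 3′ end of Pon3 and 74 bases from its entry, had 1.57 RPKM in Dnmt1+/+ and 4.31 RPKM in Dnmt1-/- MEFs, 2.74-fold higher, beside 3.67-fold for Pon3. No annotated gene overlaps it. The entry at the Mest and Copg2 locus had 1.06 and 4.58 RPKM, 4.31-fold higher, whereas Mest and Copg2 were within 2-fold. The locus column gives this entry the whole span of both genes, so its own position in it is not known.

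The other 3 lie between Bet1 and Col1a2, in sequence without annotated genes. One, at chr6:4373850-4374059, had 7.57 RPKM in Dnmt1+/+ and was listed at 0 in Dnmt1-/- MEFs. The others, at chr6:4308953-4309292 and chr6:4309343-4309507, had 5.73 and 3.77 RPKM and 990.3 and 930.1 RPKM, both within 2-fold.

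Imprinted genes other than the members served as a wider setting. They include Tfpi2, which lies within the Peg10-Sgce domain and was not kept. Of 57 such entries found in the table, 31 were kept, with 2 past 2-fold up, 12 past 2-fold down and a median log2 change of -0.27, where over all genes kept 8.47% were past 2-fold up and 10.9% down. The count up was thus near the share over all genes. Of the list usually expressed from the paternal chromosome, 15 entries were kept without the members, 1 higher and 7 lower. Peg3 is counted more than once among the lower ones. One entry of Peg3 had 22.5 RPKM in Dnmt1+/+ and 3.17 RPKM in Dnmt1-/- MEFs, and another had 7.53 and 0.165 RPKM. Ndn, a MAGE family gene that restrains cell growth, was the higher one, at 0.423 and 11.4 RPKM. Of the list usually expressed from the maternal chromosome, 16 were kept without the members, 1 higher and 5 lower. The higher one was H19, a growth-restraining long RNA, listed at 0 in Dnmt1+/+ and at 24.4 RPKM in Dnmt1-/- MEFs. The 4 paternally expressed entries with the largest changes, Slc38a4, Igf2, Snrpn and Peg3, were all lower. Slc38a4, an amino acid transporter, had 58.1 RPKM in Dnmt1+/+ and 0.195 RPKM in Dnmt1-/- MEFs. The 4 maternally expressed ones were Grb10, H19, Igf2r and Dlx5, all lower but H19. Dlx5, which like the members is on chromosome 6, had 3.56 RPKM in Dnmt1+/+ and 0.0503 RPKM in Dnmt1-/- MEFs. Grb10, a growth-restraining adaptor, had 102.7 and 0.0907 RPKM. The counts in both directions depend on the filter. Ndn and H19 were kept only through their Dnmt1-/- values. Most of the lower entries, among them Slc38a4, Igf2, Snrpn, Grb10, Igf2r and Dlx5, were kept only through their Dnmt1+/+ values. Differences between the members and these genes cannot be tested with 1 library per genotype.

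**Figure D5:**
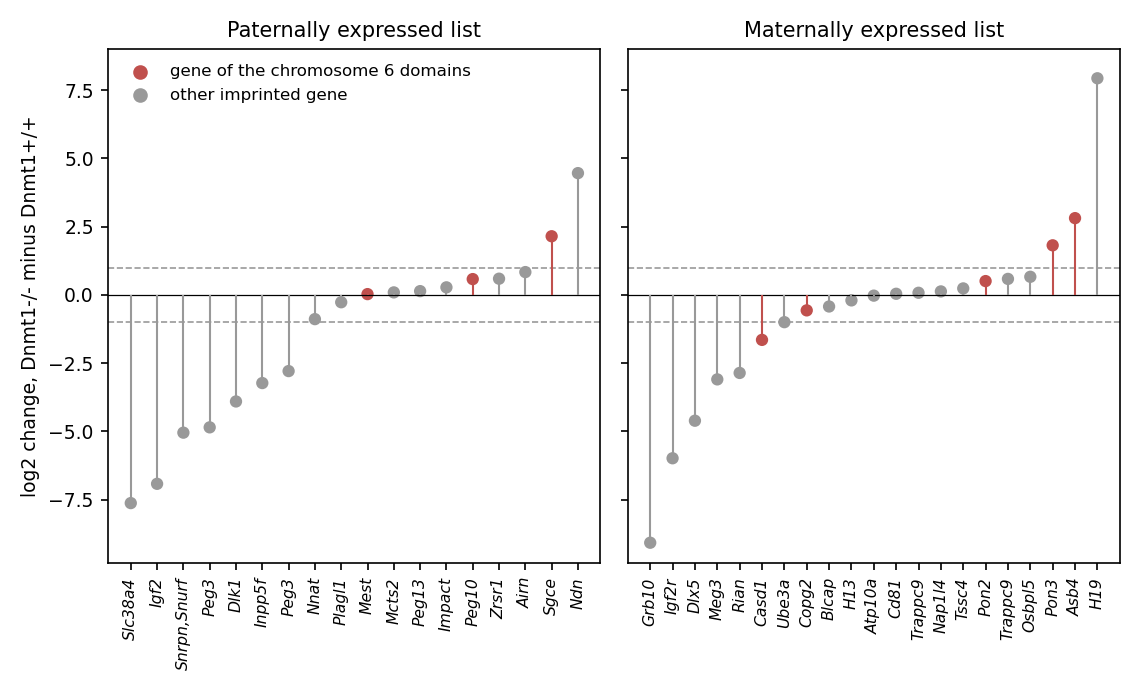
Each point is an imprinted entry kept, ordered by its log2 change from Dnmt1+/+ to Dnmt1-/- on the vertical axis, in 2 panels by the parental chromosome that is usually expressed, with members in red and dashed lines at 2-fold. Among the members Sgce, Pon3 and Asb4 lie above 2-fold and Casd1 below it. The other points below 2-fold are of genes that are not members, among them Dlx5, which is also on chromosome 6.

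Dnmt1 belongs to a set of 18 genes that set, keep or remove imprints, of which 13 were kept, none past 2-fold up and 3 past 2-fold down, beside 8.47% and 10.9% of all genes kept. Besides Dnmt1 these were Arid4b, a chromatin protein linked to imprint control, at 14.7 and 4.68 RPKM, and Tet2, an enzyme that oxidises methylated cytosine, at 1.92 and 0.388 RPKM. Uhrf1, which brings Dnmt1 to newly copied DNA, had 49.2 RPKM in Dnmt1+/+ and 55.1 RPKM in Dnmt1-/- MEFs. Zfp57, a zinc finger protein that binds methylated imprinting control regions, had 18.95 and 10.8 RPKM, and its partner Trim28 had 93.6 and 75.2 RPKM.

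The protein partners and relatives of the members were followed in the same way. In the complex of sarcoglycans, dystroglycan and their attached proteins, 7 genes besides Sgce were kept, of which Sgcb and Dtna, the gene of alpha-dystrobrevin, were more than 2-fold lower. Sgcb, beta-sarcoglycan, had 7.18 and 3.20 RPKM, and Sgcd, delta-sarcoglycan, had 4.26 and 4.47 RPKM. The ratio of Sgce to Sgcb was 1.62 in Dnmt1+/+ and 16.2 in Dnmt1-/- MEFs. Dag1, dystroglycan, had 34.3 and 37.0 RPKM.

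All 9 COPI coat entries were kept, none higher and 1 lower than 2-fold, Copb1, at 69.5 and 29.3 RPKM. The median log2 change of the 8 without Copg2 was -0.43, beside -0.56 for Copg2. Copg, the paralog of Copg2, had 95.2 RPKM in Dnmt1+/+ and 71.8 RPKM in Dnmt1-/- MEFs. Copg2 made up 18.0% of the summed RPKM of both paralogs in Dnmt1+/+ and 16.4% in Dnmt1-/- MEFs, and the paralogs are similar enough that some reads could be shared.

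Besides Asb4, 17 Asb genes were found and 7 of them kept, 6 within 2-fold and 1 more than 2-fold higher. That 1 was Asb5, at 0.449 RPKM in Dnmt1+/+ and 40.2 RPKM in Dnmt1-/- MEFs, a log2 change of 6.20 beside 2.81 for Asb4. Of the calcitonin receptor family and its partners 4 genes were kept. Calcrl, the receptor most like Calcr, had 2.93 and 0.501 RPKM and was more than 2-fold lower, and Ramp3, an accessory protein of both receptors, had 1.60 and 4.59 RPKM and was more than 2-fold higher. Ppp1r9b, the paralog of Ppp1r9a that encodes spinophilin, had 39.9 and 45.5 RPKM, and none of the 9 genes kept for protein phosphatase 1 and its scaffolds was past 2-fold. Of the domesticated gag genes besides Peg10, 2 were kept, Arc, an immediate early gene, at 0.677 and 2.74 RPKM, more than 2-fold higher, and Rgag4 at 1.16 and 1.67 RPKM.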

How the data were processed

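Messenger RNA of mouse embryonic fibroblasts was measured in 1 Dnmt1+/+ and 1 Dnmt1-/- library. TopHat (mapping, to mm9), Cufflinks (assembly) and Cuffdiff (abundance) were run by the authors, who deposited RPKM values with 1 column per library and a status per entry. Versions, any further scaling between the libraries and the use of strand in counting are not given in the sources used here. The deposited RPKM values carry no counts, so no counting interval is given.

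The columns named for wild-type and knock-out were taken as Dnmt1+/+ and Dnmt1-/-. Changes were differences of log2(RPKM + 0.1), over entries with a symbol, status OK and 1 RPKM or more in either library. With 1 library per genotype no test was run, and lists are described by counts past 2-fold and medians. Calling was run on simulated data with known folds, set only in genes at 2 RPKM or more in Dnmt1+/+ MEFs. It therefore does not bear on genes that start lower, such as Pon3 and Asb4. Members were placed by the locus column, whose start was raised by 1 to count from 1, as 7088 of 19951 entries then matched the start in the NCBI37 annotation (gencode vM1), against 546 without this step. Genes named are the members, Dnmt1, direct neighbours, neighbours within 1 Mb past 2-fold, and the list genes past 2-fold, up to 4 per list. The other genes given by name, among them markers, Xist, Ddx3y and relatives of members within 2-fold, and the pair ratios were added after values were seen. Some genes covered by this rule or the lists are not reported here. The members and lists were chosen with earlier results of these data known. Alternatives were other pseudocounts, filters, fold thresholds, centring and flank widths. ChIP, methylation and microarray data were not used here. Python 3.11.15, numpy 2.4.6, pandas 2.3.3 and matplotlib 3.10.9 were used.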

Additional observations from a re-analysis of the deposited data

How the results depend on the processing

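The number of members more than 2-fold higher, 3, was unaltered with pseudocounts of 1 and 0.01, without the filter on low RPKM, with any status, with the median change subtracted and at 1.5-fold (passed by 14.1% of all genes kept), and was 2 with a mean of 1 RPKM or more, which leaves out Asb4. Peg10 lies just short of the 1.5-fold threshold. The number more than 2-fold lower, 1, became 2 without the filter on low RPKM, which adds Ppp1r9a. The median log2 change of the members lay between 0.51 and 0.69. With flanks of 2 Mb in place of 1 Mb the neighbours more than 2-fold higher became 2 and those more than 2-fold lower became 6, as more genes entered, and with 0.5 Mb the counts were 1 and 3. Single members kept their sign throughout, and those whose change moved by over 1.5 times were Asb4 and Ppp1r9a under the other pseudocounts. No paired analysis was possible because each genotype has 1 library without a replicate number, and for the same reason no replicate could be left out. The RPKM values give no read count per entry, which limits Asb4, Ppp1r9a and the entries near 0 most.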

Other observations

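Entries without a symbol were also present in the 1 Mb flanks outside the domains, and those given here were chosen after their values were seen. Beside the Peg10-Sgce domain 7 such entries passed the filters, 4 past 2-fold up and 3 past 2-fold down. The 4 higher ones lie next to each other before Samd9l, itself higher. The 3 lower ones lie between Asb4 and Pdk4, at chr6:5411317-5413037 and 28.3 kb beyond Asb4, and had 1.59 to 4.56 RPKM in Dnmt1+/+ while they were listed at 0 in Dnmt1-/- MEFs. They thus went the other way from Asb4. Beside the Mest domain 19 such entries passed, 7 past 2-fold up and 5 past 2-fold down, where of all entries without a symbol 19.3% were up and 26.9% down. Of these, 4 between chr6:31009519-31066684 were listed at 0 in Dnmt1+/+ and had 2.72 to 71.3 RPKM in Dnmt1-/- MEFs, although the 9 named genes kept around Mest all stayed within 2-fold.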
